A study of Mus musculus with 6 samples.

Results

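Endothelin, nitric oxide and prostacyclin set the tone of pulmonary arteries, and the drugs used in pulmonary hypertension act on them. The genes described here are 10 of these pathways: Edn1, Ednra, Ednrb and Ece1 of endothelin, Nos3, Pde5a and Prkg1 of nitric oxide, Ptgis and Ptgir of prostacyclin, and Ace of the angiotensin system. They were chosen by gene symbol, as every probe set that the platform annotation gives to 1 of these symbols alone. The rule found 17 probe sets of 9 genes among 45101 probe sets. No probe set was listed under Ednra, the receptor for endothelin on smooth muscle, so it was not analysed here. Of the 17 probe sets, 16 passed the filter that left out the dimmest 40% of the array, and the one left out was a dim probe set of Ece1.

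RNA from whole lung homogenate of 6 FVB/N mice was measured on Affymetrix expression arrays, each mouse on its own array, in 3 groups of 2. Both control mice carried SM22-rtTA alone, a doxycycline-dependent transactivator driven by the promoter of a smooth muscle gene. The remaining mice were heterozygous for SM22-rtTA and for TetO7-BMPR2-R899X, a doxycycline-responsive transgene for a truncated BMP receptor, so the transgene is directed to smooth muscle while whole lung was measured. Of these, 2 had a right ventricular systolic pressure (RVSP) described as near normal and 2 a substantially raised one. All 6, controls included, ate doxycycline for 9 weeks from an age of 4 weeks and were killed at 13 weeks. The series describes all mice as female and age-matched, and the comparisons address the mutation with and without raised pressure.

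Endothelin-1, made mainly by endothelium, is released from its precursor by converting enzyme and constricts smooth muscle through its receptors. Endothelial nitric oxide raises cyclic GMP in the neighbouring muscle, where cyclic GMP-dependent kinase relaxes the cell and phosphodiesterase 5 ends the signal. Prostacyclin, made from prostaglandin H2, relaxes the same muscle through cyclic AMP. Angiotensin converting enzyme, abundant on lung capillary endothelium, forms angiotensin II and breaks down bradykinin.

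Values are the deposited intensities, in the order of mouse 1 and mouse 2 of a group; the numbering is by accession and pairs nothing. Differences are on the scale of log2(intensity + 16) with their standard errors from limma, fitted to all 6 arrays at once. Each group mean rests on n = 2 mice, which limits the precision of every value. In whole lung, fewer cells of a type and less RNA per cell cannot be told apart. Median intensity per array ranged from 128 to 141. Control 1 and R899X normal RVSP 1 stood apart, with mean root mean square log2 distances of 0.496 and 0.492 to the other arrays, against at most 0.420 for the rest. Their beta-actin 3'/5' intensity ratios were 1.89 and 1.64, and those of the other 4 arrays were 1.27 to 1.45. The Gapdh 3'/5' ratio did not single out the same pair: it was 0.973 and 1.03 in controls, 0.700 and 0.875 in normal RVSP and 0.721 and 0.740 in high RVSP mice. Both controls were above every R899X mouse in this ratio, and its part in the comparisons with control was not tested. Endothelial markers, 10 of 10 with a probe set, had none near 0 (lowest intensity 1151) and summed to 51110 and 58984 in controls, 61360 and 54551 in normal RVSP and 56233 and 51771 in high RVSP mice. The 8 smooth muscle markers summed to 16245 and 19346, to 24086 and 20431, and to 19897 and 19076 in the same order.

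No member passed in any of the 4 comparisons, and the same held for the whole array. With limma and Benjamini-Hochberg adjustment at 0.05 over 27022 probe sets, 0 of the 16 member probe sets were called for R899X normal RVSP against control, against a background of 0% (adjusted p from 0.987 to 0.997). For R899X high RVSP against control the count was also 0 with a background of 0% (adjusted p from 0.857 to 0.994). For high against normal RVSP (adjusted p = 1 for each) and for all R899X against control (adjusted p from 0.832 to 0.996) it was 0 as well, again with backgrounds of 0%. At an unadjusted limma p under 0.05 the counts were 0, 2, 0 and 1 of 16, where 4.34%, 5.65%, 2.62% and 5.92% of all probe sets fell. The ordinary linear model also called 0 probe sets in each comparison. The 3 comparisons with control share the same control arrays, and the one of all R899X shares its R899X arrays with the others. The member probe sets under that unadjusted limit were Ednrb 1426314_at and 1423594_a_at in high RVSP against control, and Ednrb 1423594_a_at in all R899X against control.

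The member that came closest was Ednrb, the endothelin B receptor, which clears endothelin from the lung circulation and on endothelium triggers release of nitric oxide and prostacyclin. Its promoter window is shown here with that of Edn1, the gene of its ligand, because the receptor's arrays did not overlap between high RVSP and control while the ligand's did. Sequences are from RefSeq for GRCm38.p6, 5′ to 3′ on the gene's strand, 250 bases before to 50 bases after an annotated start. Capitals mark matches, on either strand, to motifs searched for in every window: AGATAA for the GATA factor family, TGANTCA for the factor AP-1, CCAAT for the box of that name, GGGCGG for the GC box, TATAAA for the core promoter box and GGCGCC for a GC-rich Smad element. No match overlapped another in these windows.
Ednrb, chr14:103843652-103843951, minus strand: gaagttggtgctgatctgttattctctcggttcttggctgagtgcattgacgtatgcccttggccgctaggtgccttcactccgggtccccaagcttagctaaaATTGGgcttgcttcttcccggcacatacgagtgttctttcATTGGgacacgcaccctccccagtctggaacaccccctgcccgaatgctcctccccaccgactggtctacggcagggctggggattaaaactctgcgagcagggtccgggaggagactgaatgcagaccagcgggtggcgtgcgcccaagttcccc
Edn1, chr13:42301226-42301525, plus strand: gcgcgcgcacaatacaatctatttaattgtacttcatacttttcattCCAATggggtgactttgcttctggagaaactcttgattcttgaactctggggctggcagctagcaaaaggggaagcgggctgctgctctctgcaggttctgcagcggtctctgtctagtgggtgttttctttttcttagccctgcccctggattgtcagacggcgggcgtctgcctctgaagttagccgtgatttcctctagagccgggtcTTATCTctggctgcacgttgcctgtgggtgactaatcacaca

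In the Ednrb window 2 CCAAT matches were found, and 37.4% of the 32851 promoter windows in the table hold at least 1. The Edn1 window held 1 CCAAT match and 1 GATA match, a motif present in 11.2% of windows. The AP-1, GC box, TATA and GC-rich Smad letters, present in 7.81%, 35.7%, 13.6% and 11.9% of windows, were not in either one.

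Ednrb was read by 3 probe sets. The intermediate one (1426314_at) had intensities of 471 and 625 in controls, 723 and 547 in normal RVSP mice and 821 and 874 in high RVSP mice. The dimmest (1423594_a_at) gave 189 and 582, then 509 and 587, then 720 and 799. On both, the high RVSP mice were above all 4 other mice. The brightest (1437347_at) gave 3118 and 3042, then 3536 and 2649, then 3445 and 3197, and its high RVSP mice were above both controls but within the range of the normal RVSP mice. The difference between high RVSP and control was 0.63 ± 0.22 on the intermediate probe set (95% interval 0.13 to 1.12, limma adjusted p = 0.857). On the dimmest it was 1.14 ± 0.43 (0.16 to 2.12, limma adjusted p = 0.857), and on the brightest 0.11 ± 0.17 (-0.29 to 0.51, adjusted p = 0.956). The 3 probe sets thus had the same sign and very different sizes.

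Control 1 decided much of that difference on the dimmest Ednrb probe set, where its 189 was far below every other array. Without control 1 the high RVSP difference was 0.37 on the dimmest and 0.43 on the intermediate probe set, and without control 2 it was 1.92 and 0.83. Between high and normal RVSP the difference was 0.42 ± 0.22 on the intermediate, 0.46 ± 0.43 on the dimmest and 0.12 ± 0.17 on the brightest probe set. On the intermediate probe set it was 0.22 without R899X normal RVSP 2 and 0.62 without R899X normal RVSP 1. For normal RVSP against control the brightest probe set gave -0.0088 ± 0.17, the intermediate 0.21 ± 0.22 and the dimmest 0.68 ± 0.43. For all R899X against control they gave 0.05 ± 0.15, 0.42 ± 0.19 and 0.91 ± 0.37 in the same order. The arrays overlapped on all 3 probe sets in both comparisons. Endothelial markers, beside which these values stand, had a median difference of -0.05 in high RVSP against control, with 3 of 10 higher. Their part in the result was not tested.

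**Figure D1:**
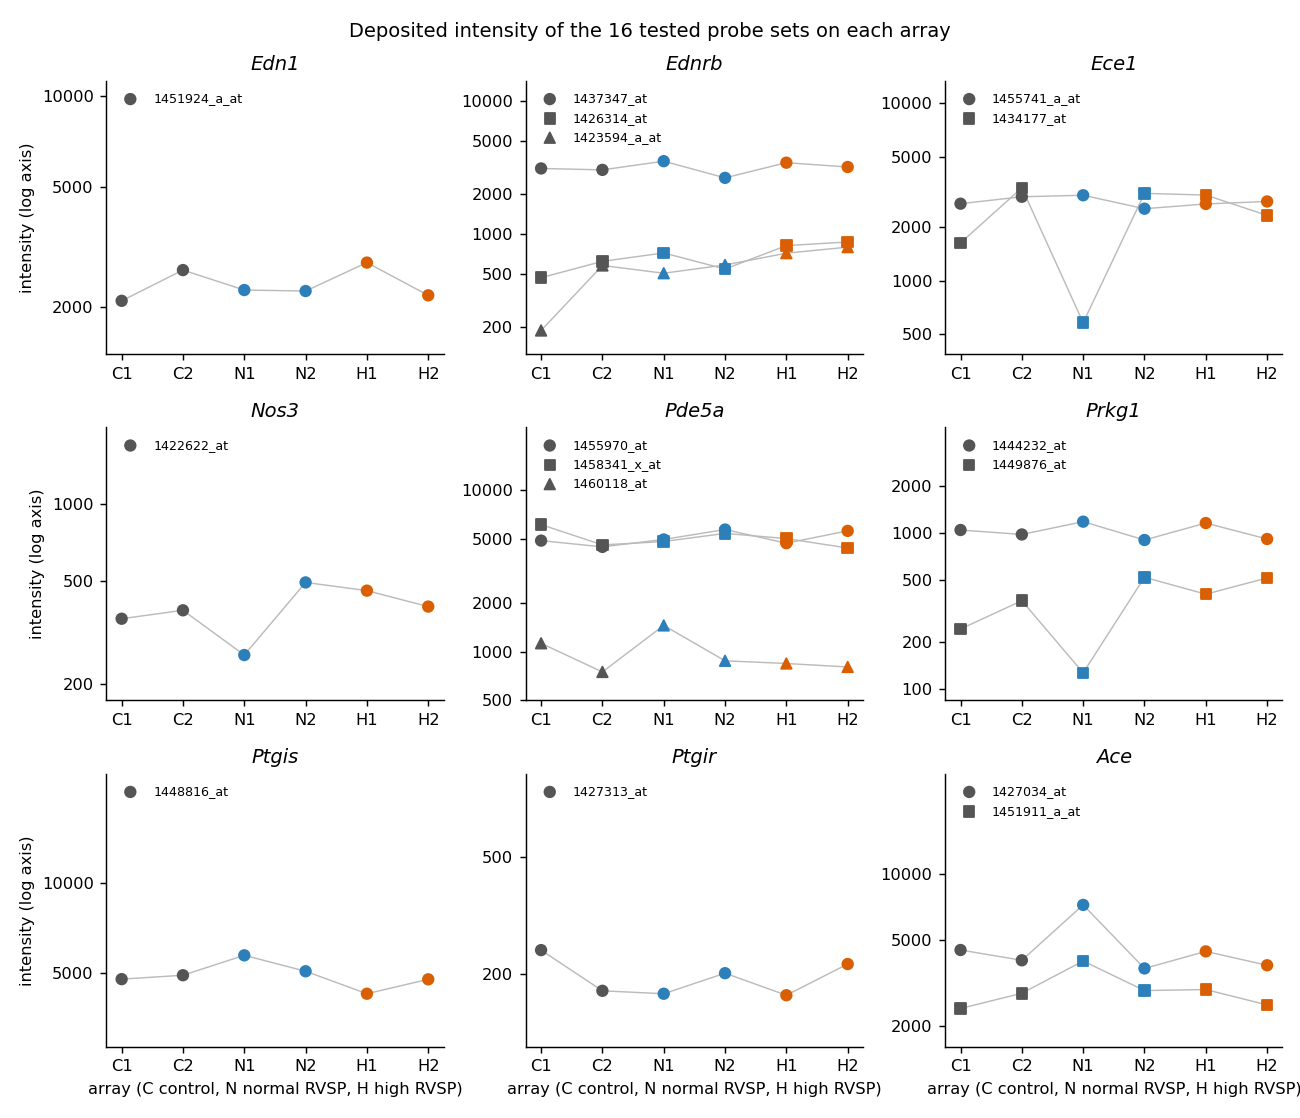
Deposited intensity (log axis) of the 16 tested probe sets of 9 genes on each array, 1 panel per gene; marker shape is the probe set, colour the group (grey control, blue R899X normal RVSP, orange R899X high RVSP), and thin lines only join points of a probe set. The squares and triangles of Ednrb are highest in H1 and H2, and the squares of Ece1 and Prkg1 are lowest in N1 and next lowest in C1.

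Edn1, which encodes the endothelin-1 precursor, had intensities of 2097 and 2652 in controls, 2277 and 2260 in normal RVSP and 2808 and 2187 in high RVSP mice. The groups overlapped throughout, and the highest and lowest arrays differed 1.34-fold. Its differences were -0.06 ± 0.19 for normal RVSP and 0.07 ± 0.19 for high RVSP against control, 0.13 ± 0.19 for high against normal RVSP, and 0.01 ± 0.16 for all R899X against control. The 95% interval for high RVSP against control ran from -0.36 to 0.50. The 3 genes whose profile over the 6 arrays lay nearest to Edn1 were Nfx1, Calcoco1 and Pgghg, at root mean square log2 differences of 0.036, 0.055 and 0.055, where the median over 12086 genes was 0.238. Nfx1, for example, read 707 and 939, then 772 and 766, then 949 and 786.

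Ece1, the endothelin converting enzyme, was read in very different ways by its 2 tested probe sets. The first (1455741_a_at) gave 2719 and 2975, then 3034 and 2548, then 2710 and 2799, a 1.19-fold range over all mice and the narrowest of the 16. Its differences were -0.03 ± 0.16 for normal RVSP and -0.05 ± 0.16 for high RVSP against control, -0.01 ± 0.16 between them, and -0.04 ± 0.13 for all R899X against control. The second (1434177_at) gave 1634 and 3342, then 580 and 3109, then 3042 and 2336, a 5.76-fold range and the widest. Its low arrays were R899X normal RVSP 1 and control 1, members of different groups. The dim Ece1 probe set (1441423_at), not tested, lay between 1.89 and 26.3.

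Nos3, the endothelial nitric oxide synthase, had intensities of 357 and 385 in controls, 258 and 494 in normal RVSP and 459 and 398 in high RVSP mice. Both high RVSP values were above both controls, and the normal RVSP mice held the lowest and the highest array. The difference between high RVSP and control was 0.20 ± 0.29 (95% interval -0.48 to 0.88, adjusted p = 0.951). Against control the normal RVSP mice stood at -0.05 ± 0.29 and all R899X mice at 0.07 ± 0.25. High against normal RVSP gave 0.25 ± 0.29, and -0.20 when R899X normal RVSP 1 was left out.

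Pde5a, the phosphodiesterase that degrades cyclic GMP and is blocked by sildenafil, had 3 tested probe sets. The main one, that with the highest mean log2 value (1455970_at), gave 4875 and 4458 in controls, 4956 and 5711 in normal RVSP and 4699 and 5601 in high RVSP mice. The normal RVSP mice were above both controls, and the high RVSP mice overlapped both groups. Its differences were 0.19 ± 0.16 for normal RVSP and 0.14 ± 0.16 for high RVSP against control, -0.05 ± 0.16 between them, and 0.16 ± 0.14 for all R899X against control. Leaving out 1 array at a time, the first ranged from 0.088 (without R899X normal RVSP 2) to 0.29 and the second from 0.011 (without R899X high RVSP 2) to 0.26. A second probe set (1458341_x_at) gave 6128 and 4586, then 4812 and 5405, then 5017 and 4389, and pointed the other way from the main one in 3 of 4 comparisons. Its mean intensity over the arrays was 5056, against 5050 for the main one, so the choice of main probe set was close. Its differences were -0.06 ± 0.18 for normal RVSP and -0.18 ± 0.18 for high RVSP against control. Between them it gave -0.12 ± 0.18, and for all R899X against control -0.12 ± 0.16. The suffix x marks a probe set that may also bind other transcripts. The third (1460118_at) gave 1126 and 748, then 1453 and 877, then 844 and 803. High RVSP was below normal RVSP on it by -0.45 ± 0.28 (adjusted p = 1), and by -0.09 without R899X normal RVSP 1.

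Prkg1, the cyclic GMP-dependent kinase that relaxes smooth muscle, was read by 2 probe sets. The main one (1444232_at) gave 1039 and 973, then 1175 and 897, then 1151 and 910, with full overlap. Its differences were 0.03 ± 0.20 for normal RVSP and 0.03 ± 0.20 for high RVSP against control, -0.0049 ± 0.20 between them, and 0.03 ± 0.17 for all R899X against control. The other (1449876_at) gave 242 and 367, then 127 and 518, then 404 and 513, so the high RVSP mice were above both controls and within the range of the normal RVSP mice. That difference was 0.58 ± 0.54 (95% interval -0.65 to 1.82, adjusted p = 0.912), and 0.30 without control 1. As with Ece1, the 2 probe sets of Prkg1 separated on control 1 and R899X normal RVSP 1.

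Ptgis, prostacyclin synthase, had intensities of 4779 and 4923 in controls, 5733 and 5076 in normal RVSP and 4275 and 4772 in high RVSP mice. The groups did not overlap: normal RVSP lay above and high RVSP below the controls, though the nearest pair of high RVSP and control mice was 4772 against 4779. Its difference from control was 0.15 ± 0.15 in normal RVSP (95% interval -0.19 to 0.49, adjusted p = 0.987) and -0.10 ± 0.15 in high RVSP (-0.44 to 0.24, adjusted p = 0.950). High against normal RVSP gave -0.26 ± 0.15 (-0.60 to 0.09, adjusted p = 1). All R899X mice together stood at 0.03 ± 0.13 from control. Without R899X high RVSP 1 the high RVSP difference from control was -0.024 and without R899X high RVSP 2 it was -0.18; without R899X normal RVSP 1 the normal RVSP difference was 0.065 and that between high and normal RVSP -0.17. Smooth muscle markers had median differences of 0.30 for normal RVSP against control (8 of 8 higher), -0.03 for high RVSP against control (3 of 8 higher) and -0.28 for high against normal RVSP (0 of 8 higher). Their part in the Ptgis values was not tested.

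Ptgir, the prostacyclin receptor, gave 241 and 175 in controls, 171 and 201 in normal RVSP and 169 and 216 in high RVSP mice, with overlap between each pair of groups. It differed from control by -0.14 ± 0.26 in normal RVSP, -0.10 ± 0.26 in high RVSP and -0.12 ± 0.23 in all R899X mice, and by 0.04 ± 0.26 between high and normal RVSP. Without control 1, the array with 241, all 3 differences from control turned positive, at 0.075, 0.12 and 0.095.

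Ace, angiotensin converting enzyme, was read by 2 probe sets. The main one (1427034_at) gave 4492 and 4029 in controls, 7238 and 3696 in normal RVSP and 4426 and 3822 in high RVSP mice. The second (1451911_a_at) gave 2420 and 2842, then 3998 and 2925, then 2956 and 2512. R899X normal RVSP 1 was the highest array on both. Against control the normal RVSP mice stood at 0.28 ± 0.28 on the main and 0.38 ± 0.20 on the second probe set (adjusted p = 0.987 for each), where only the second was free of overlap. Without R899X normal RVSP 1 these values were -0.20 and 0.16. High RVSP differed from control by -0.05 ± 0.28 and from normal RVSP by -0.33 ± 0.28 on the main probe set, and all R899X from control by 0.12 ± 0.25.

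**Figure D2:**
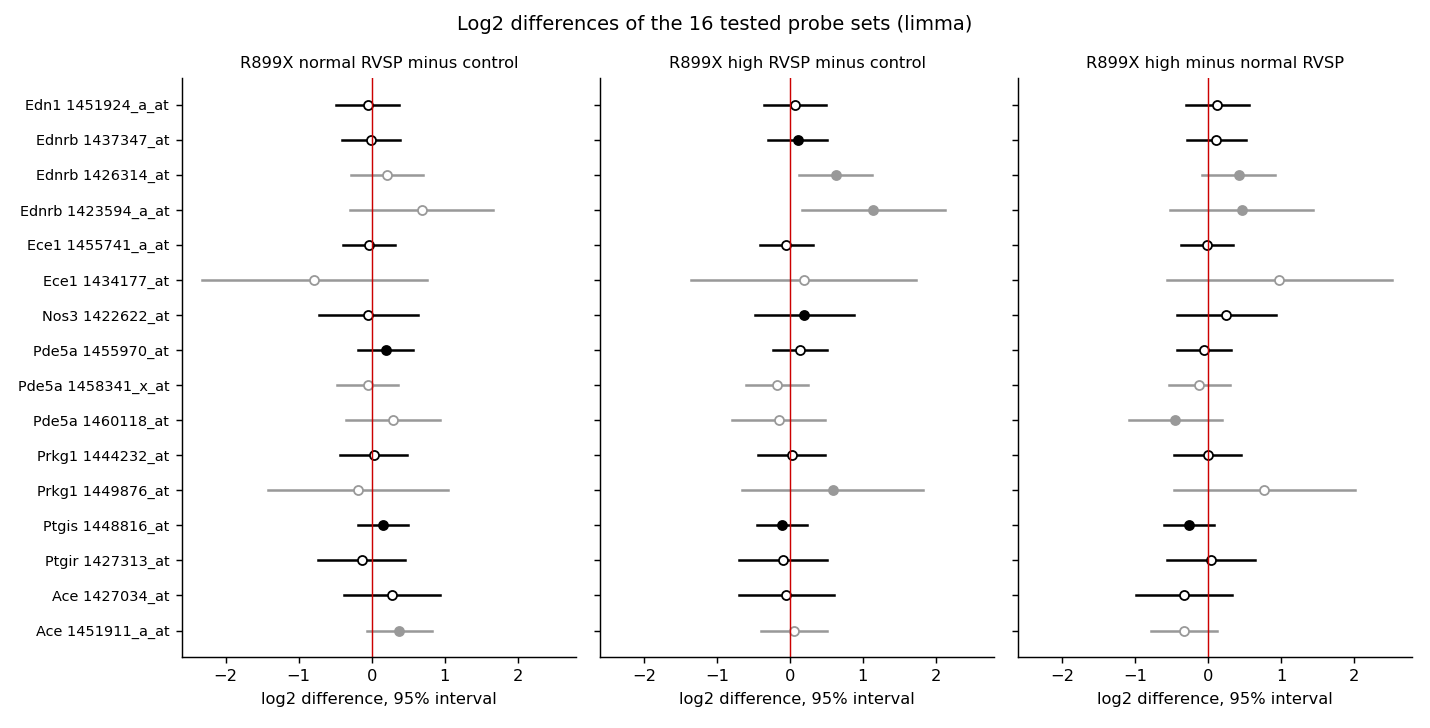
Log2 differences (points) with 95% intervals from limma (lines) for the 16 tested probe sets in 3 comparisons; black is the main probe set of a gene, grey another one, and a filled point marks groups whose arrays did not overlap. The intervals exclude 0 for Ednrb 1426314_at and 1423594_a_at in high RVSP against control, before any adjustment.

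Counts of probe sets whose groups did not overlap can be read against the array as a whole. In high RVSP against control, 5 of 16 member probe sets (3 of Ednrb, 1 of Nos3 and 1 of Prkg1) were higher without overlap, where the background was 19.1%, and 1 (Ptgis) was lower, with a background of 18.2%. In normal RVSP against control, 3 of 16 (Pde5a, Ptgis and Ace) were higher with a background of 14.4%, and 0 were lower with a background of 15.1%. In high against normal RVSP, 2 (both Ednrb) were higher and 2 (Pde5a and Ptgis) lower, with backgrounds of 16.7% and 15.5%. For all R899X against control 0 were higher and 0 lower, with backgrounds of 7.52% and 7.71%. Left without control 1 and R899X normal RVSP 1, so that controls and normal RVSP held 1 mouse each, 7 of 16 were higher in high RVSP than control, and 36.5% of all probe sets were.

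The arrays that stood apart were visible in the members. Control 1 and R899X normal RVSP 1 read below the 4 other mice on 4 of 16 probe sets: Ednrb 1423594_a_at, Ece1 1434177_at, Nos3 1422622_at and Prkg1 1449876_at. They read above the others on 2, Pde5a 1460118_at and Ace 1427034_at. Over the whole array 12.0% of probe sets read below and 12.8% above in this pair. For Ednrb, Ece1, Prkg1, Pde5a and Ace another probe set of the same gene did not follow, and in the root mean square log2 difference between centred profiles the 2 Ece1 probe sets were 0.917 apart, those of Prkg1 0.786, and those of Ace 0.193. One Bmpr2 probe set (1419616_at) had the same shape, with 436 and 2047 in controls, 657 and 1987 in normal RVSP and 1928 and 2170 in high RVSP mice. Other Bmpr2 probe sets did not follow it. The brightest (1434310_at) read 19768 and 15872, then 18835 and 16849, then 17087 and 15398, and was highest in control 1 and R899X normal RVSP 1. The dimmest (1441652_at) read 302 and 408, then 460 and 373, then 331 and 358. The beta-actin 3'/5' ratios given above were highest on the same 2 arrays, and the Gapdh ratios were not. Their part in these probe sets was not tested.

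**Figure D3:**
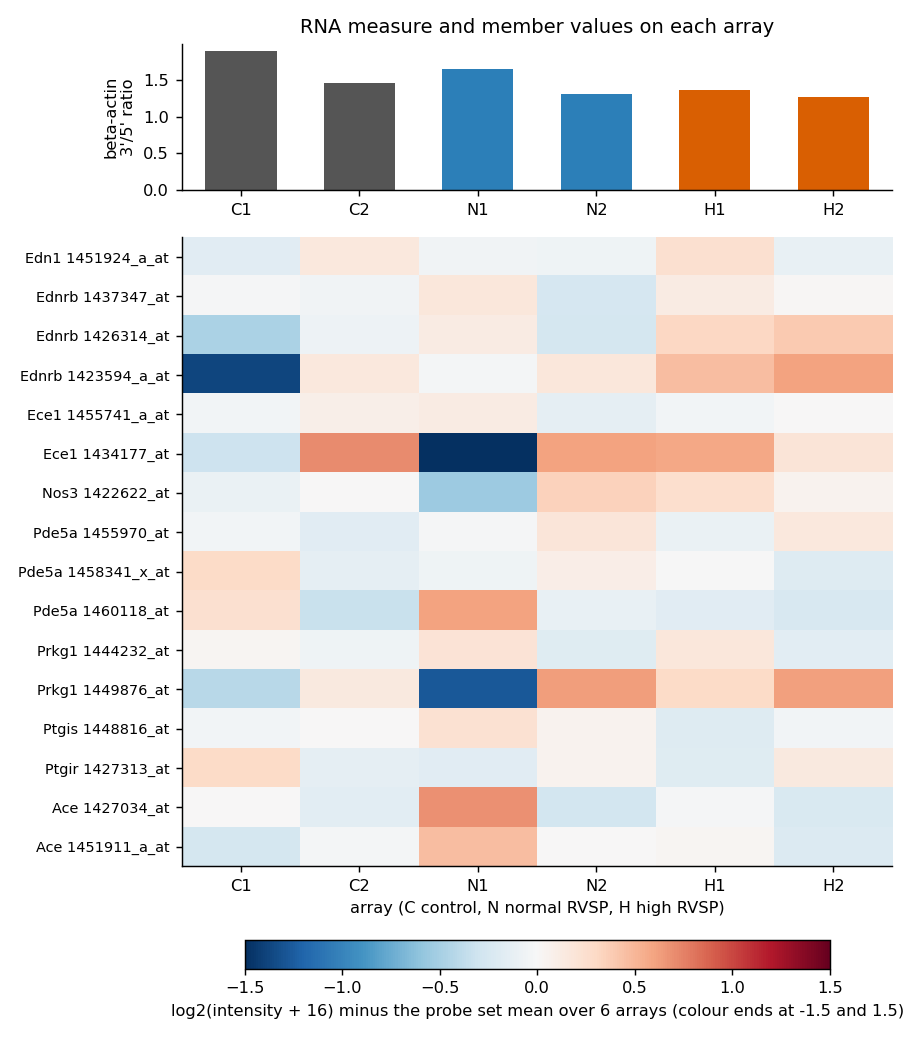
Upper panel, ratio of the 3' to the 5' beta-actin control probe set on each array; lower panel, log2(intensity + 16) of the 16 member probe sets minus the probe set's mean over 6 arrays, with colour ending at -1.5 and 1.5. C1 and N1 have the highest actin ratios, 1.89 and 1.64, and hold the darkest blue cells, Ednrb 1423594_a_at in C1 and Ece1 1434177_at and Prkg1 1449876_at in N1.

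Beyond the members, 93 other genes of these pathways were listed, of which 88 had a probe set and 70 were tested on their brightest probe set. None of the 70 passed in either direction in any of the 4 comparisons (limma, 0% of 12556 genes called), and 2, 2, 2 and 3 had an unadjusted limma p under 0.05, where 2.45%, 2.35%, 1.79% and 2.88% of the 12556 genes did. Their median log2 difference was 0.08 for normal RVSP against control, 0.0077 for high RVSP against control, 0.0047 for high against normal RVSP and 0.04 for all R899X against control. Without overlap 14 were higher and 5 lower for normal RVSP against control (backgrounds 15% and 12%), 15 and 8 for high RVSP against control (14.3% and 18.3%), 11 and 16 for high against normal RVSP (11.5% and 19.8%), and 7 and 2 for all R899X against control (6.24% for each). The medians over 12556 genes were 0.02, -0.02, -0.03 and -0.00048. For the 9 main member probe sets they were -0.0088, 0.03, -0.0049 and 0.03.

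Among the endothelin genes, Plcb1, a phospholipase C that acts downstream of Gq-coupled receptors such as those of endothelin, read 1108 and 891 in controls, 1227 and 882 in normal RVSP and 1766 and 1626 in high RVSP mice. The high RVSP mice were above all others. Their difference was 0.76 ± 0.21 from control (limma adjusted p = 0.857) and 0.70 ± 0.21 from normal RVSP (adjusted p = 1). Both other tested Plcb1 probe sets were higher too, by 0.39 and 1.10 against control. Leaving out any 1 array, the difference from control ranged from 0.61 to 0.92. It was 0.92 without control 1 and R899X normal RVSP 1 together. In that fit control and normal RVSP held 1 mouse each. Its residual spread came from the 2 high RVSP mice alone, and limma moderated it with a trend over all probe sets. Of the 8 tested endothelin genes besides the members, 3 were higher without overlap in high RVSP against control (background 14.3%) and 0 lower (background 18.3%).

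Of the nitric oxide and cyclic GMP genes, 27 were tested. In high RVSP against control 1 was higher and 4 were lower without overlap, where 14.3% and 18.3% of all genes were, and the list's median was -0.02. Npr3, the natriuretic peptide clearance receptor, read 3900 and 6083 in controls, 1326 and 3611 in normal RVSP and 4388 and 3641 in high RVSP mice. Its normal RVSP difference from control was -1.15 ± 0.42 (limma adjusted p = 0.987), and -0.43 without R899X normal RVSP 1. The 2 other tested Npr3 probe sets gave -0.85 and -0.75 in the same comparison. Ddah1, which breaks down an inhibitor of nitric oxide synthase, read 1284 and 1208 in normal RVSP and 924 and 887 in high RVSP mice, with controls at 813 and 1115. That difference was -0.45 ± 0.19 (limma adjusted p = 1). Its 4 other probe sets ranged from -0.32 to 0.91 in the same comparison, and the 1 that pointed the other way was the 0.91.

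Of the prostacyclin and prostanoid genes, 30 were tested. In all R899X against control 7 were higher without overlap and 0 lower, with backgrounds of 6.24% and 6.24%, and the list's median was 0.10. Pla2g4a, the phospholipase that frees arachidonic acid, read 402 and 460 in controls, 603 and 669 in normal RVSP and 517 and 574 in high RVSP mice. Its difference for all R899X against control was 0.44 ± 0.16 (limma adjusted p = 0.832), and for normal RVSP against control 0.55 ± 0.18. Tbxa2r, the thromboxane receptor, read 180 and 247, then 341 and 277, then 298 and 337, a difference of 0.53 ± 0.21 for all R899X against control (adjusted p = 0.832) that was 0.32 without control 1. Pde3a, a cyclic AMP phosphodiesterase, read 106 and 250, then 241 and 232, then 381 and 260, and its high RVSP difference from control, 0.88 ± 0.37 (adjusted p = 0.857), was 0.32 without control 1. Platelets carry Tbxa2r and Pde3a, and 4 platelet markers with a probe set summed to 2768 and 3935 in controls, 4144 and 4031 in normal RVSP and 4166 and 6265 in high RVSP mice, with 4 of 4 higher in all R899X against control. Their part in these values was not tested.

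**Figure D4:**
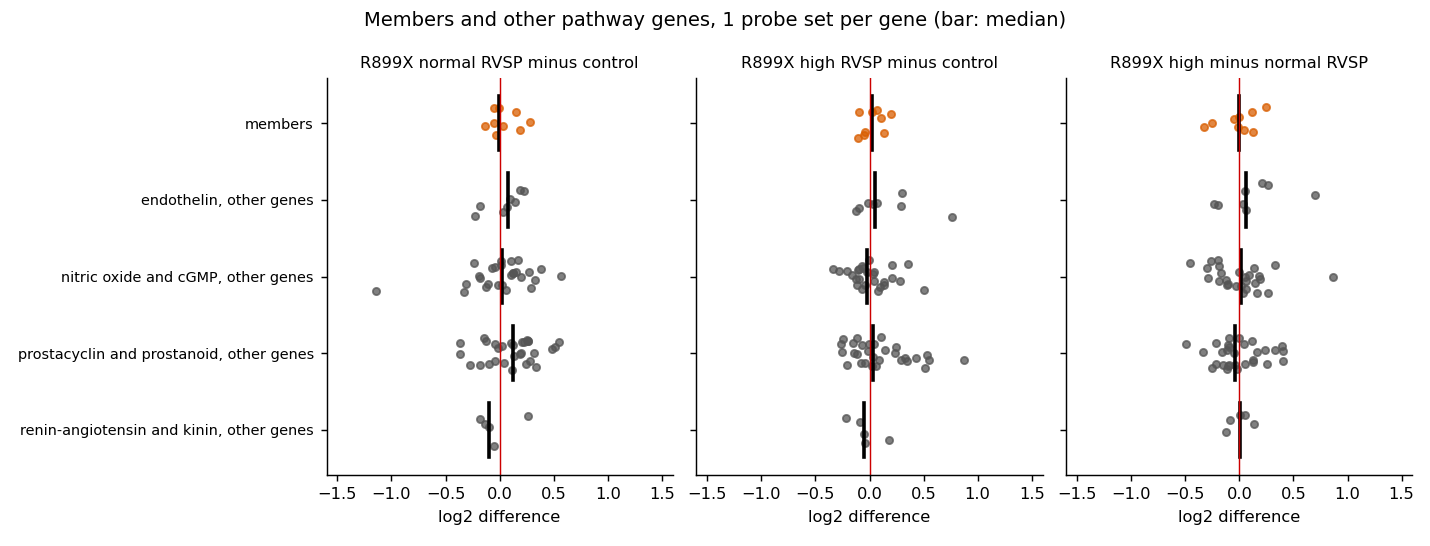
Log2 differences of the 9 members (orange, main probe sets) and of 70 other pathway genes (grey, 4 lists, 1 probe set per gene) in 3 comparisons; vertical bars are list medians and vertical scatter within a list has no meaning. The points lie around 0, and those beyond 0.6 are Npr3 at -1.15 in normal RVSP against control, Plcb1 at 0.76 and Pde3a at 0.88 in high RVSP against control, and Plcb1 at 0.70 and Npr3 at 0.86 in high against normal RVSP.

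Of 15 angiotensin and kinin genes besides Ace, 12 had a probe set and 5 were tested. In normal RVSP against control 1 was higher and 4 were lower, with a median of -0.09, and in high RVSP against control the counts were the same with a median of -0.05. In all R899X against control 1 of them was lower without overlap, where 6.24% of genes were.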

How the data were processed

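Per the file's values, the authors deposited linear intensities, 1 per probe set and array, scaled so that the mean after trimming 2% at each end is 499.9 on each array; the summary algorithm was not given in the sources used here. Values were turned into log2(intensity + 16). Array medians spanned 0.127, under a limit of 0.2, so arrays were not normalized again. Left out were 64 control probe sets and the lower 40% by mean (18015), leaving 27022. Annotation gave 1 symbol for 34958 probe sets, several for 932, and none for 9211. Group means were fitted in limma 3.58.1 under R 4.3.3 (3 residual degrees of freedom), and 4 two-sided contrasts took trended moderation; all R899X weights both pressure groups equally. An exact permutation test cannot go below p = 0.333 for 2 against 2 arrays or 0.0667 for 4 against 2, so none was used. The procedure was run on simulated data with larger changes than most reported here, so its power at the reported sizes was not shown. A gene's main probe set has the highest mean log2 value; other pathway genes were named, up to 2 per comparison and direction, by smallest unadjusted p under 0.05 without overlap. Cell type markers (10 lists) were summed; besides those in the report, alveolar type 2 markers summed to 76923 to 104117 over the arrays, alveolar type 1 to 49867 to 62908, club to 68997 to 89898, ciliated to 1419 to 3077, cardiac muscle to 11262 to 30805, macrophage to 7312 to 15842 and B cell to 1885 to 4562. The members, lists and alternatives were chosen with earlier results of these data known. The labels name no batch.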

Additional observations from a re-analysis of the deposited data

Results flagged for a closer look

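Over the 4 R899X mice, taken as 1 group, 2 of 16 member probe sets had an array whose gap to its neighbour, divided by the range and both taken on log2(intensity + 16), exceeded Dixon's 95% limit for 4 values, a limit that chance passes in about 1 of 20 groups. For Edn1 the gap was 0.839 of the range, from R899X high RVSP 1 at 2808 to the others at 2187 to 2277. For the Pde5a probe set 1460118_at it was 0.853, from R899X normal RVSP 1 at 1453 to the others at 803 to 877. The share of all tested probe sets that pass this limit was not counted, so the 2 have no background to be read against.

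For Ptgis both normal RVSP mice were above and both high RVSP mice below the controls. The smooth muscle markers had medians of 0.30 for normal RVSP against control and -0.28 for high against normal RVSP, and their part was not tested. The test of that difference, high against normal RVSP, gave -0.26 ± 0.15 with a limma adjusted p = 1.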

How the results depend on the processing

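No main probe set of a member passed under any of the 15 alternatives run: over 531 alternative values of the 36 main probe set differences the adjusted p stayed between 0.187 and 1, and 73 had the other sign. For 15 differences of other member probe sets without overlap and of named pathway genes, 208 alternative values were run, chosen after seeing the data. Of these, 0 had the other sign. All 15 were picked for sides that did not overlap, and leaving out arrays cannot turn the sign of such a difference. In those fits the count was fixed in advance, so it is not comparable with the 73 above. Some of the 208 values passed, all of them in the fit without control 1 and R899X normal RVSP 1. That fit leaves 1 mouse each in control and normal RVSP, so these passes are not taken as results. Other differences of the same probe sets and genes were not run. The cause of the shifts among alternatives was not tested, beyond the fewer arrays that some fits hold. With other pseudocounts (1 and 64), no filter, quantile normalization, no trend or the ordinary linear model, 0 probe sets were called; with only the arrays of high RVSP and control it was 1.

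Leaving out 1 array at a time, calls ranged over the array from 0 to 4 for normal RVSP against control, 0 to 2 for high RVSP against control, 0 to 43 for high against normal RVSP and 0 to 6 for all R899X against control; a group then holds 1 mouse, assumed to vary like the others. Ranges are given only for main probe set differences that changed sign, and those not listed kept theirs. For normal RVSP against control these ranged from -0.22 to 0.11 for Edn1, -0.22 to 0.20 for Ednrb and -0.16 to 0.093 for Ece1. They ranged from -0.50 to 0.40 for Nos3, -0.16 to 0.22 for Prkg1, -0.35 to 0.075 for Ptgir and -0.20 to 0.76 for Ace. For high RVSP against control they ranged from -0.11 to 0.25 for Edn1, -0.11 to 0.019 for Ece1, -0.14 to 0.19 for Prkg1, -0.31 to 0.12 for Ptgir and -0.15 to 0.057 for Ace. For high against normal RVSP they ranged from -0.052 to 0.31 for Edn1, -0.091 to 0.32 for Ednrb, -0.14 to 0.11 for Ece1, -0.20 to 0.70 for Nos3, -0.18 to 0.074 for Pde5a, -0.20 to 0.19 for Prkg1, -0.12 to 0.21 for Ptgir and -0.81 to 0.15 for Ace. For all R899X against control they ranged from -0.16 to 0.18 for Edn1, -0.054 to 0.15 for Ednrb, -0.10 to 0.025 for Ece1, -0.15 to 0.30 for Nos3, -0.068 to 0.12 for Prkg1, -0.019 to 0.069 for Ptgis, -0.33 to 0.095 for Ptgir and -0.13 to 0.36 for Ace.

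Without control 1 and R899X normal RVSP 1 together, which leaves 1 residual degree of freedom, 131, 313, 56 and 228 probe sets were called in the 4 comparisons, none of them a main member probe set. The signs that turned were, for normal RVSP against control, Nos3 at 0.35, Prkg1 at -0.11, Ptgir at 0.18 and Ace at -0.12; for high RVSP against control, Edn1 at -0.097, Ptgir at 0.12 and Ace at 0.030; for high against normal RVSP, Ece1 at 0.11, Nos3 at -0.20, Prkg1 at 0.19, Ptgir at -0.067 and Ace at 0.15. For all R899X against control they were Edn1 at -0.16, Ednrb at -0.036, Prkg1 at -0.021, Ptgis at -0.040, Ptgir at 0.15 and Ace at -0.047. With the mean over a gene's probe sets, Ednrb turned to 0.29 and Prkg1 to -0.079 for normal RVSP against control, Ece1 to 0.071, Pde5a to -0.064 and Ace to 0.0031 for high RVSP against control, and Ece1 to 0.48 and Prkg1 to 0.38 for high against normal RVSP. With quantile normalization Ece1 turned to 0.023 and Ptgir to -0.033 for high against normal RVSP, and Edn1 to -0.0026 for all R899X against control. No depth is known for arrays, and 2 mice a group limit each value.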
